A study of Mus musculus with 8 samples.

Results

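Cytokine genes of activated T cells, 10 in all, were followed in CD8+ T cells taken from mouse tumours: Ifng, Tnf, Lta, Ltb, Il2, Csf2, Il3, Il23a, Il10 and Tgfb1. They were chosen by name, and their 10 rows were found among the 49492 genes of the deposited count table. In libraries from Plpp1 knockout animals, Ifng, Lta, Il23a and Csf2 stood 6.48 to 30.9 times as high as in controls. Tnf, Tgfb1 and Il10 also rose, by smaller amounts, Ltb fell to 45.2% of its control level, and Il2 and Il3 stayed near the count floor in both genotypes.

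The knockout group (KO, 4 libraries) came from Lckcre-PLPP1fl/fl mice, in which Cre recombinase driven by Lck, a gene of the T lineage, acts on a floxed Plpp1 gene. The control group (WT, 4 libraries) came from PLPP1fl/fl mice, which carry the same floxed alleles without Cre, so no group carries Cre alone and an effect of Cre itself cannot be told apart from the loss of Plpp1. Plpp1 encodes a phospholipid phosphatase, and the title of the series links its loss, PD-1 signalling and ferroptosis, an iron-dependent form of cell death, to weaker antitumour activity. All mice were described as female, carried subcutaneous tumours of B16, a mouse melanoma line, and gave cells on day 14 by magnetic beads against CD8a. The labels give no age, and they do not say whether a library is 1 animal or a pool, so p-values measure the spread between libraries.

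A CD8 T cell that meets its antigen transcribes cytokine genes within hours, chiefly through NFAT, AP-1 and NF-kappaB, and loses the transcripts quickly when the signal ends. Interferon gamma acts on tumour and myeloid cells, tumour necrosis factor and the lymphotoxins act through receptors of the TNF family, and IL-2, GM-CSF and IL-3 are growth factors. IL-10 and TGF-beta restrain T cells and antigen-presenting cells. Much of the control over these transcripts lies in their 3′ untranslated regions, where repeats of the pentamer ATTTA (with U for T in the RNA) form AU-rich elements that are bound by decay factors such as tristetraprolin, the product of Zfp36.

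The richest 30-base stretches of such repeats are shown for 6 of the cytokine genes, because the genes differed widely in this feature. They are written 5′ to 3′ on the strand of the gene, from GENCODE M21 on GRCm38, with each ATTTA in capitals; the stretches lie at chr17:35199679-35199708 (minus strand) for Tnf, chr11:54247329-54247358 (minus) for Csf2, chr10:118445330-118445359 (plus) for Ifng, chr3:37121040-37121069 (minus) for Il2, chr10:128296187-128296216 (minus) for Il23a and chr17:35203408-35203437 (minus) for Lta.
Tnf: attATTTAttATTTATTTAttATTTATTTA
Csf2: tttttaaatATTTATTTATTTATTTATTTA
Ifng: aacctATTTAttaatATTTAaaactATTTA
Il2: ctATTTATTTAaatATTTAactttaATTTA
Il23a: agtatagatgatggttATTTAttctATTTA
Lta: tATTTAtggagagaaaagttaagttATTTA

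Over the whole 3′ untranslated region of 1 transcript a gene, read on the gene's own strand with overlapping matches counted, ATTTA occurred 9 times in Csf2, 8 in Tnf, 7 in Il2, 6 each in Ifng, Il23a and Il10, 3 in Lta, 1 each in Il3 and Tgfb1, and not at all in Ltb. The pentamer was thus present in 9 of the 10 genes, and 6 of them held at least 5 copies. Among 11989 tested genes with such a region, 64.7% held the pentamer and 18.8% held at least 5 copies, in regions with a median length of 926 bases against 101 to 764 bases in the cytokine genes. The stricter nonamer TTATTTATT, in which the pentamer lies, was found in 5 of the 10 genes (5 copies in Tnf, 4 in Csf2, 1 each in Il2, Il23a and Lta) and in 7.01% of the 11989. Ltb, the gene without a pentamer, has a 3′ untranslated region of 156 bases.

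The 250 bases before the transcription start are shown for Ifng, Tnf and Lta, because Tnf and Lta are close neighbours that changed unequally and Ifng changed like Lta. They come from RefSeq on GRCm38.p6, written 5′ to 3′ on the gene's strand, with the NFAT core GGAAA, or its reverse complement TTTCC, in capitals. The regions are chr10:118440796-118441045 (plus) for Ifng, chr17:35202008-35202257 (minus) for Tnf and chr17:35205352-35205601 (minus) for Lta.
Ifng: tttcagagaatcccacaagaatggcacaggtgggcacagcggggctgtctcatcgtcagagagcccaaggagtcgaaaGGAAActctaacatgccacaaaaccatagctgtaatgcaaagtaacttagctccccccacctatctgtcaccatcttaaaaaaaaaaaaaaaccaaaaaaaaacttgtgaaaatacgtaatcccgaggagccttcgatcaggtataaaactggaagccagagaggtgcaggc
Tnf: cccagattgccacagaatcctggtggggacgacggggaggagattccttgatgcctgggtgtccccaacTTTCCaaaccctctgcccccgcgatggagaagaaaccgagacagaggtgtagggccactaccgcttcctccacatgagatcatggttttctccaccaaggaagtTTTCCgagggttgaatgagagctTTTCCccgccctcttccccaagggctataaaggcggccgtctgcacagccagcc
Lta: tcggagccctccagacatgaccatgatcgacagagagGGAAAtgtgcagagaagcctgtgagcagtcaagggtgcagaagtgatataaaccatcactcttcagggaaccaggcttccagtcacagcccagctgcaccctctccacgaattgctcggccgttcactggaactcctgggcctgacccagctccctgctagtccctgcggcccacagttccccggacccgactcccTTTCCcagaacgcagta

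The core occurred 3 times before Tnf, 2 times before Lta and 1 time before Ifng, on either strand. The TATA sequence TATAAA lay 30 bases before the start of Ifng and 29 before that of Tnf, and 167 bases before that of Lta. Promoters were at hand for 8 of the 10 genes, and the core was found in 7 of them, all but Tgfb1. A 5-base core is common, and 55.6% of all 27025 promoters held it. The AP-1 sequence TGANTCA was found before none of the 8 (6.87% of all promoters), and the NF-kappaB consensus only before Ltb (3.75% of all), where it overlapped the NFAT core.

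Library totals were 44118131 to 57716522 counts in KO and 49856353 to 61999941 in WT. The genotypes differed in most of the transcriptome: of 17940 genes that passed the filter on low counts, edgeR's quasi-likelihood test called 11542, or 64.3%, at a Benjamini-Hochberg adjusted p of 0.05, with 32.8% rising and 31.6% falling. Plpp1 itself was scarce, at 0.498 ± 0.14 CPM (counts per 10 to the power 6 counts of the scaled library) in KO and 0.892 ± 0.18 in WT (SD, n = 4 each), a log2 fold change of -0.84 (SE 0.26, edgeR adjusted p = 0.0064). The summed level of 4 Y-linked genes was 190 to 203 CPM in the KO libraries and 0.0974 to 0.244 CPM in the WT libraries, while Xist stood at 51.1 ± 4.4 CPM in KO and 747 ± 27 in WT (n = 4 each). The Y-linked transcripts of the KO libraries are at odds with the description of all mice as female. Each result below therefore compares libraries that differ in these markers of sex as well as in genotype, and the 2 cannot be told apart. Markers of CD8 T cells were abundant in all libraries but lower in KO, where all 6 listed genes fell (Cd8a 240 ± 7.8 CPM in KO and 331 ± 5.4 in WT, Cd3g 213 ± 8.6 in KO and 361 ± 8.9 in WT, n = 4 each). In bulk RNA, fewer cells that express a gene and less of its RNA per cell cannot be told apart.

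Of the 10 cytokine genes, 8 passed the filter on low counts. Of these, 7 rose and 1 fell, against 64.3% of all tested genes called. Fitted changes of at least 2-fold were called upward in 5 of the 8 and downward in 1, whereas 5.8% of all tested genes rose and 7.55% fell by that much. All 8 had KO and WT libraries that did not overlap, as had 58.3% of all tested genes. The median log2 fold change of the 8 was 1.92, beside -0.01 for all tested genes. Il2 and Il3 did not pass the filter and are described by their counts.

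**Figure D1:**
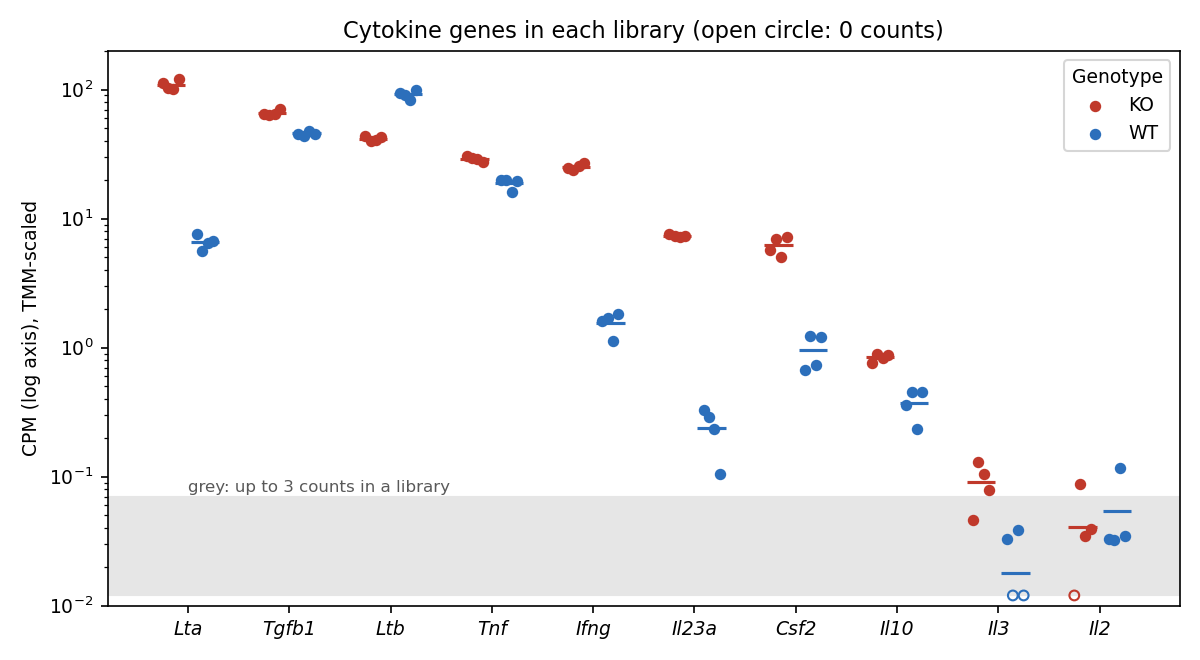
CPM (log axis, TMM-scaled) of each of the 10 cytokine genes in the 4 KO (red, left) and 4 WT (blue, right) libraries; points are libraries, open circles are libraries with 0 counts, bars mark the mean, and the grey band reaches up to 3 counts in the smallest library (0.0691 CPM). The KO points lie above all WT points for Lta, Tgfb1, Tnf, Ifng, Il23a, Csf2, Il10 and, near the band, Il3, below them for Ltb, and among them for Il2.

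Ifng, the gene of interferon gamma, had 24.5, 24.0, 25.4 and 26.8 CPM in KO libraries 1 to 4, against 1.60, 1.71, 1.12 and 1.81 CPM in WT libraries 1 to 4. The KO libraries lay close together and every one was far above every WT library. The means were 25.2 ± 1.2 CPM in KO and 1.56 ± 0.30 in WT (SD, n = 4 each), a log2 fold change of 4.0 (SE 0.095, edgeR adjusted p = 5.3e-20). Behind these values stood 1062 to 1461 counts a library in KO and 58 to 105 in WT. By the size of its rise Ifng was 29th of the 17940 tested genes.

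Tnf, the gene of tumour necrosis factor, changed far less. It had 30.6, 29.4, 28.9 and 27.3 CPM in the KO libraries, against 19.8, 19.9, 16.2 and 19.6 CPM in the WT libraries. The groups did not overlap, and WT library 3 was the lowest of the 8. The log2 fold change was 0.62 (SE 0.064, edgeR adjusted p = 1.2e-08), and the call was lost when the change was tested against a fold of 1.5 (adjusted p = 0.47).

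Lta, which encodes lymphotoxin alpha, rose 16.5-fold. Its values were 112, 103, 101 and 120 CPM in KO libraries, against 7.61, 5.59, 6.52 and 6.68 CPM in WT libraries. The log2 fold change was 4.04 (SE 0.081, edgeR adjusted p = 7.7e-17), with 4699 to 6075 counts a library in KO and 337 to 465 in WT. Lymphotoxin alpha is secreted as a homotrimer that binds the TNF receptors, and on the cell surface it joins lymphotoxin beta, a membrane protein, in a heterotrimer that binds the lymphotoxin beta receptor.

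Ltb, the gene of lymphotoxin beta, was the one member to fall. It had 43.4, 39.7, 41.0 and 42.6 CPM in KO libraries, against 94.7, 91.4, 83.7 and 98.9 CPM in WT libraries, and every KO library lay below every WT library. The means of 41.7 ± 1.6 CPM in KO and 92.2 ± 6.4 in WT (SD, n = 4 each) gave a log2 fold change of -1.15 (SE 0.051, edgeR adjusted p = 5.0e-15). The balance of the heterotrimer's genes was reversed. Per length, Lta stood at 2.87 ± 0.16 times Ltb in KO and at 0.0786 ± 0.0099 times Ltb in WT (SD, n = 4 each), with no overlap. The ratio of Lta to Tnf, per length, was 4.46 ± 0.51 in KO and 0.417 ± 0.065 in WT.

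The 3 genes of the TNF family are neighbours on chromosome 17 (GRCm38). Ltb lies at chr17:35194439-35196320 on the plus strand, Tnf at chr17:35199381-35202007 and Lta at chr17:35203165-35205351, both on the minus strand. Only 1158 bases part Lta from Tnf, and 3061 part Tnf from Ltb, yet the fitted changes of the 3 were 4.04, 0.62 and -1.15. No exon of these genes overlaps an exon of another gene in the deposited table.

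**Figure D2:**
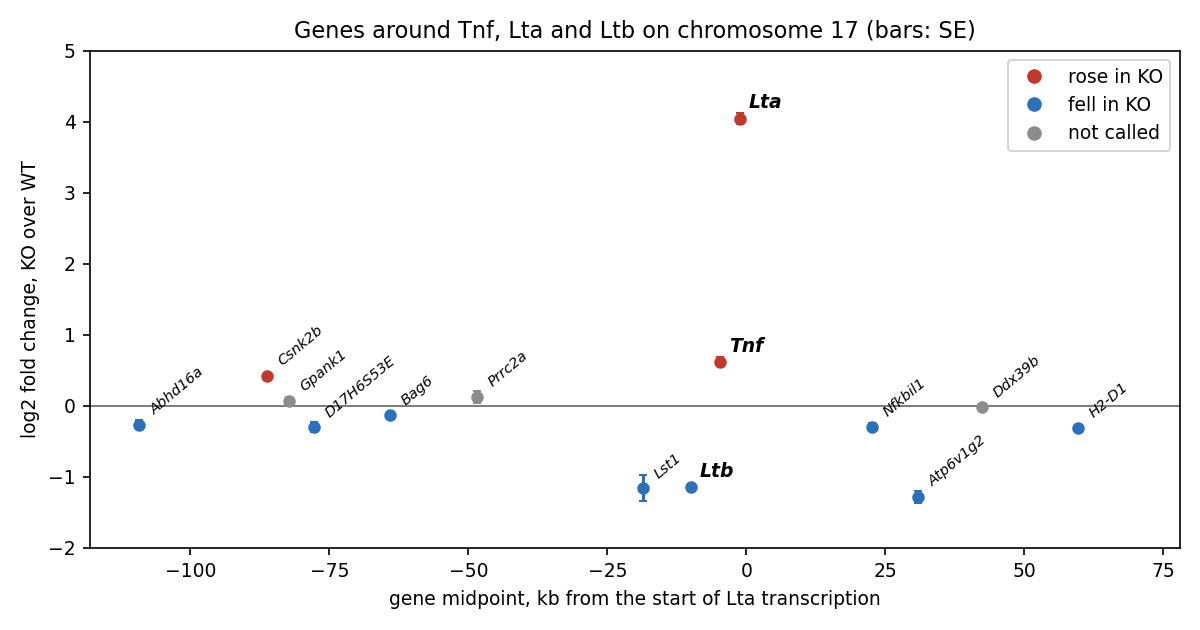
Log2 fold change, KO over WT, of genes around Tnf, Lta and Ltb, against the distance of the gene's midpoint from the start of Lta in kilobases; bars are SEs, colours give the call, and hairpin genes, predicted genes and genes of low level are not drawn. Lta stands at 4.04 and Tnf at 0.62, Ltb at -1.15, and of the other drawn genes Csnk2b was called upward.

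A pair of annotated miRNA hairpins lies inside introns of these genes; they were singled out after their values were seen. Mir6974 (chr17:35204475-35204557, minus strand, 83 bases) reaches from one exon of Lta to the next. Its sequence, from RefSeq on GRCm38.p6, begins with GU and ends with AG, here in capitals, the usual ends of an intron.
Mir6974: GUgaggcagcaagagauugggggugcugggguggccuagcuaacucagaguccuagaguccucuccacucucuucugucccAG
The row of Mir6974 held 54, 56, 90 and 96 counts in KO libraries, against 3, 1, 1 and 2 in WT libraries. The ratio of the depth-scaled sums was 49.7, with a 95% counting interval of 16.6 to 162 when read pairs are the unit, and the groups did not overlap. In the polyA libraries such reads are reads from an intron of Lta and do not measure a mature miRNA. Mir6973a, at the end of an intron of Ltb (chr17:35194972-35195049, plus strand), had 24, 40, 38 and 16 counts in KO libraries and 66, 68, 61 and 79 in WT libraries. It fell by 0.98 on the log2 scale (SE 0.24, edgeR adjusted p = 0.0012), in the same direction as its host gene.

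Csf2 encodes GM-CSF, a growth factor of myeloid cells that T cells release after activation. It had 5.76, 6.98, 5.01 and 7.24 CPM in KO libraries, against 0.671, 1.23, 0.735 and 1.22 CPM in WT libraries. Values varied more within each genotype than those of Ifng or Lta, and the groups were still far apart. The log2 fold change was 2.68 (SE 0.18, edgeR adjusted p = 1.4e-10), and the means differed 6.48-fold. Csf2 shares 96 bases of exon with the predicted gene Gm12223 on the opposite strand. That gene held 199 counts in all 8 libraries beside 1449 of Csf2, and the sources used here do not give the strand setting of the counting. Gm12223 rose by 3.01 on the log2 scale (edgeR adjusted p = 9.3e-08). At its mean density the shared bases would hold 7.9 counts a library in KO and 1.1 in WT. Csf2 itself held 250 to 366 counts a library in KO and 38 to 76 in WT.

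Il3, the gene of a growth factor of mast cells, basophils and blood progenitors, lies 15636 bases from Csf2 on chromosome 11 and stayed near the floor. It held 2, 6, 6 and 4 counts in the KO libraries, against 2, 0, 2 and 0 in the WT libraries. Most low counts in the table were even, so 2 counts are likely 1 read pair. The means were 0.0901 ± 0.036 CPM in KO and 0.0179 ± 0.021 in WT (SD, n = 4 each), where 3 counts are worth 0.0487 to 0.0691 CPM. An exact permutation test over the 70 ways to assign the libraries gave a two-sided p of 0.0286, which is the smallest it can give. In CPM the KO libraries lay above the WT libraries, and no fold is given at this depth. KO library 1 held 2 counts, as did WT libraries 1 and 3, and stood above them only through its smaller total. The permutation p of 0.0286 depends on that order. With no filter on low counts, edgeR gave an adjusted p of 0.13, and without any 1 WT library the exact permutation p was 0.0571.

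Il2, the T cell growth factor, stayed near the floor in both genotypes. It held 0, 4, 2 and 2 counts in KO libraries and 2, 2, 6 and 2 in WT libraries, so that 1 library of each genotype exceeded 3 counts. The means of 0.0404 ± 0.036 CPM in KO and 0.0540 ± 0.041 in WT (SD, n = 4 each) overlapped, with a two-sided exact permutation p of 0.71. A difference between genotypes could not be seen at this depth, and without WT library 3 the sign of the small difference turned.

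Il23a encodes p19, the subunit particular to IL-23, which is secreted only when paired with p40, the product of Il12b. It showed the steepest rise of the cytokine genes and was 13th of the 17940 tested genes by that measure. It had 7.65, 7.31, 7.17 and 7.37 CPM in KO libraries, against 0.327, 0.292, 0.232 and 0.104 CPM in WT libraries. The log2 fold change was 4.92 (SE 0.17, edgeR adjusted p = 4.0e-17). The WT values rest on 20, 18, 12 and 6 counts, so the size of the change is less sure than its direction: the ratio of the summed, depth-scaled counts was 30.5, with a 95% counting interval of 20.9 to 46.2 when read pairs are the unit. Il12b, named after its values were seen, stayed near the floor at 0.0705 ± 0.062 CPM in KO and 0.0677 ± 0.045 in WT (n = 4 each).

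Il10, the gene of an inhibitory cytokine, was low in both genotypes and rose in KO. It had 0.760, 0.894, 0.835 and 0.870 CPM in KO libraries, against 0.36, 0.455, 0.232 and 0.452 CPM in WT libraries, from 33 to 48 counts a library in KO and 12 to 28 in WT. The log2 fold change was 1.15 (SE 0.26, edgeR adjusted p = 5.9e-04). These values stood above the floor, at 6 counts as well as at 3, but they are the least precise of the 8 tested genes.

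Tgfb1, the gene of TGF-beta 1, was well expressed in both genotypes and rose by 0.53 on the log2 scale (SE 0.047, edgeR adjusted p = 9.8e-10). It had 64.8, 63.8, 64.9 and 70.9 CPM in KO libraries, against 45.2, 44.0, 48.1 and 45.7 CPM in WT libraries. The groups did not overlap, and KO library 4 was the highest. As with Tnf, the call was lost against a fold of 1.5 (adjusted p = 1).

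**Figure D3:**
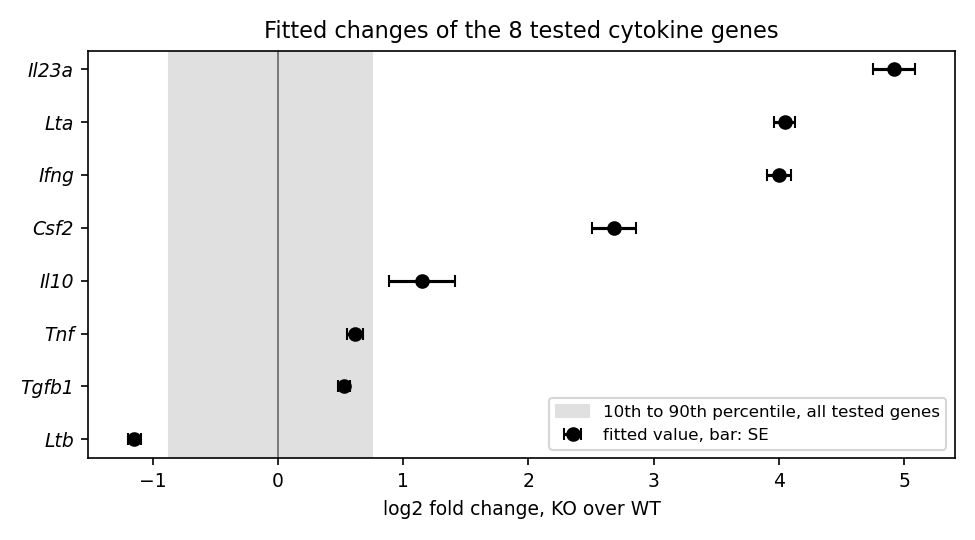
Log2 fold change, KO over WT, of the 8 tested cytokine genes with their SEs; the grey band spans the 10th to the 90th percentile of all 17940 tested genes, -0.87 to 0.75. Il23a, Lta, Ifng, Csf2 and Il10 lie above the band, Tnf and Tgfb1 inside it, and Ltb below it.

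Between genes, levels can be compared only per length, here as CPM per kilobase of exon. The deposited exon length was 5042 bases for Tgfb1 and 629 to 1639 for the others. The place of Tgfb1 in the order depends on that length, which may exceed that of its transcript. In KO the order was Lta (78.8), Ltb (27.5), Ifng (20.9), Tnf (17.7), Tgfb1 (13.1), Csf2 (7.81), Il23a (5.43), Il10 (0.641), Il3 (0.143) and Il2 (0.0353), and among neighbours in this order only Il3 and Il2 overlapped between libraries. In WT it was Ltb (60.8), Tnf (11.5), Tgfb1 (9.07), Lta (4.77), Ifng (1.29), Csf2 (1.21), Il10 (0.286), Il23a (0.176), Il2 (0.0472) and Il3 (0.0284). There Ifng could not be parted from Csf2, nor Il10 from Il23a, Il23a from Il2, or Il2 from Il3. Lta was rank 1 in KO and rank 4 in WT, and Ltb rank 2 in KO and rank 1 in WT. Of the summed CPM of all 10 genes, Lta made up 38.1 ± 1.3% in KO and 3.96 ± 0.46% in WT, and Ltb 14.6 ± 0.44% in KO and 55.3 ± 1.4% in WT (SD, n = 4 each). The sum itself was 274 to 303 CPM in KO and 157 to 175 CPM in WT.

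**Figure D4:**
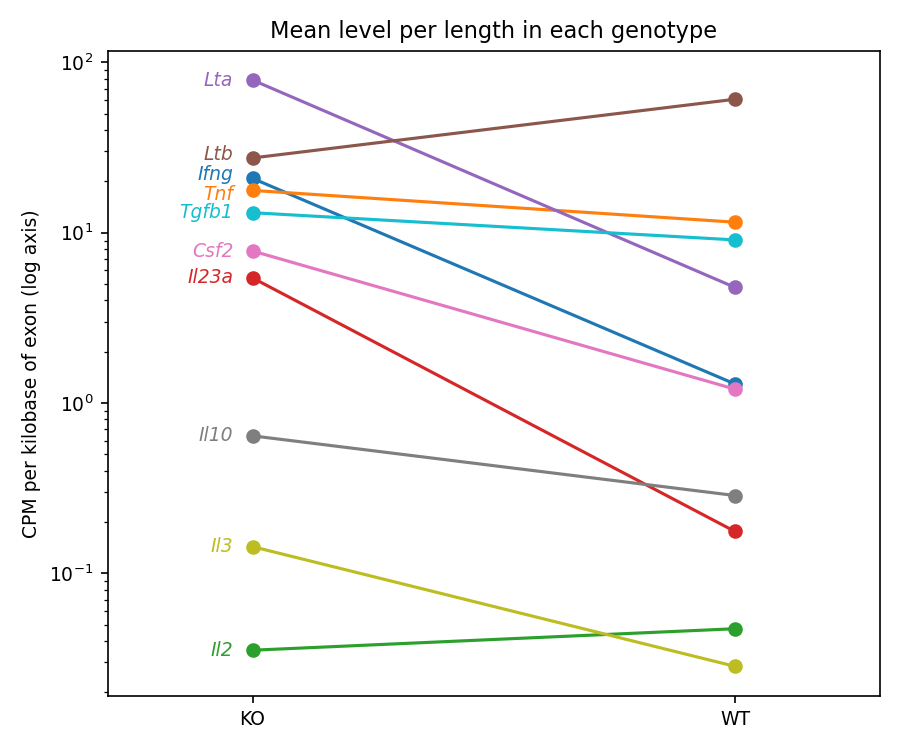
Mean level of each cytokine gene in CPM per kilobase of exon (log axis) in KO (left) and WT (right); lines join the values of 1 gene. Lta is the highest gene in KO at 78.8 and Ltb in WT at 60.8, and Il2 and Il3 are the lowest in both.

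Other cells that make these cytokines could add RNA to the libraries, and their markers were low but not equal between genotypes. Markers of mast cells and basophils, which make IL-3 and TNF, summed to 6.91 to 7.89 CPM in KO and 1.43 to 1.57 CPM in WT. Where 32.8% of all tested genes rose, 3 of the 6 listed markers could be tested and all 3 rose. Among them Ms4a2 had 4.04 ± 0.37 CPM in KO and 1.06 ± 0.099 in WT, and Cpa3 1.97 ± 0.26 in KO and 0.272 ± 0.13 in WT (n = 4 each), while Mcpt4 was at 0 in all libraries. Markers of natural killer cells summed to 3.95 to 5.89 CPM in KO and 1.51 to 2.59 CPM in WT (2 of 4 tested rose). They were led by Klre1 with 2.79 ± 0.56 CPM in KO and 0.981 ± 0.17 in WT and Klrb1c with 1.64 ± 0.38 in KO and 0.488 ± 0.21 in WT. Ncr1, on the same list, did not rise, with 0.187 ± 0.087 CPM in KO and 0.270 ± 0.12 in WT (edgeR adjusted p = 0.28). Gamma-delta T cell markers summed to 3.12 to 4.03 CPM in KO and 1.24 to 1.70 CPM in WT (1 of 2 tested rose, Trdc at 2.88 ± 0.49 CPM in KO and 0.997 ± 0.20 in WT). Their part in the changes of the cytokine genes was not tested.

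Antigen-presenting cells, the usual source of IL-23, gave little signal. Dendritic cell markers summed to 3.25 to 3.79 CPM in KO and 1.4 to 1.74 CPM in WT, with Zbtb46 rising (2.37 ± 0.33 CPM in KO, 0.618 ± 0.16 in WT), Xcr1 at 0.866 ± 0.16 in KO and 0.792 ± 0.20 in WT, and Cd209a at 0. Macrophage and monocyte markers summed to 5.33 to 6.04 CPM in KO and 6.56 to 7.02 CPM in WT, with 1 of 4 tested rising and 1 falling; Cd68 had 2.14 ± 0.29 CPM in KO and 2.38 ± 0.24 in WT. For B cells the sums were 2.90 to 3.58 CPM in KO and 4.76 to 6.19 CPM in WT, and for neutrophils 0.0872 to 0.278 CPM in KO and 0.452 to 0.877 CPM in WT, with S100a8 and Retnlg at 0. For CD4 T cells they were 19.6 to 24.1 CPM in KO and 23.3 to 25.7 CPM in WT, mostly Zbtb7b, with Cd4 at 1.52 ± 0.096 CPM in KO and 2.32 ± 0.16 in WT. Regulatory T cell markers, of interest for Il10, Tgfb1 and Il2ra, summed to 21.2 to 22.8 CPM in KO and 20.1 to 21.5 CPM in WT, with Foxp3 at 12.0 ± 0.80 CPM in KO and 12.8 ± 0.67 in WT (edgeR adjusted p = 0.20). Of these 3 markers 1 rose and 1 fell: Ikzf4 had 7.25 ± 0.39 CPM in KO and 3.50 ± 0.17 in WT, and Nrp1 fell by 0.71 on the log2 scale. Melanoma markers summed to 5.30 to 6.56 CPM in KO and 17.9 to 19.4 CPM in WT, mostly Pmel, with Mlana, Tyr and Tyrp1 at 0 in all libraries. Fibroblast sums stayed at 0.262 to 0.522 CPM in KO and 0.193 to 0.365 CPM in WT. Sums of the endothelial list, nearly all Pecam1, were 24.8 to 30.1 CPM in KO and 99.1 to 111 CPM in WT. The other genes of that list were scarce, Cdh5 at 0.011 CPM in KO and 0 in WT and Kdr at 0.112 in KO and 0.068 in WT. The part of these cells in the results was not tested either.

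Most listed heat shock and dissociation genes, which cells induce during handling, differed between the genotypes as well. Of 11 tested, 7 rose and 2 fell, where 32.8% of all tested genes rose and 31.6% fell. The median log2 fold change was 0.87, with summed levels of 4106 to 4351 CPM in KO and 2195 to 2429 CPM in WT. The sums were mostly Hsp90aa1, at 3694 ± 95 CPM in KO and 1981 ± 106 in WT. Atf3, an immediate stress response factor, rose by 3.39 on the log2 scale, and the chaperone genes Hsph1 and Hsp90aa1 by 1.05 and 0.90. Btg2, an early response gene, fell by 0.97 and Dusp1 by 0.62. Fos and Dnajb1 were not called (edgeR adjusted p = 0.42 and 0.90). Cytokine genes also respond to handling, and the part of these genes in the result was not tested.

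Among 30 other interleukin and cytokine genes, 16 passed the filter, of which 6 rose and 5 fell (median log2 fold change 0.43). The 4 with the smallest adjusted p were Il16, Lif, Spp1 and Mif. Il16, a chemoattractant stored in T cells, had 66.8 ± 1.8 CPM in KO and 148 ± 3.3 in WT and fell by 1.14 on the log2 scale. Lif, a cytokine of the IL-6 family, had 23.5 ± 2.6 CPM in KO and 7.08 ± 0.49 in WT, a change of 1.73. Spp1, the gene of osteopontin, rose by 2.13 and Mif, macrophage migration inhibitory factor, by 0.68. Among 14 other ligand genes of the TNF superfamily, 10 were tested, of which 4 rose and 3 fell (median 0.30). Tnfsf11, the gene of RANKL, rose by 1.73, Tnfsf4, the gene of OX40 ligand, by 1.62 and Fasl, the death ligand of cytotoxic cells, by 0.92, while Tnfsf8, the gene of CD30 ligand, fell by 0.48. These counts are near the shares of all tested genes, of which 32.8% rose and 31.6% fell.

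Of 20 tested receptor genes of these cytokines, 7 rose and 11 fell (median log2 fold change -0.37), beside 32.8% rising and 31.6% falling among all tested genes. Against a fold of 1.5 the counts were 4 and 4. All 20 are described here, beyond the 4 that the naming rule takes. For interferon gamma, both receptor chains fell (Ifngr1 by 0.49, Ifngr2 by 0.53 on the log2 scale). For TGF-beta, the signalling receptors Tgfbr1 and Tgfbr2 fell by 1.08 and 0.56, and the co-receptor Tgfbr3 rose by 0.25. For IL-10, Il10ra had 55.6 ± 2.6 CPM in KO and 99.2 ± 1.4 in WT and fell by 0.84, and Il10rb fell by 0.45. Ligand and receptor genes of these 3 cytokines thus moved in opposite directions, apart from Tgfbr3.

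Of the 7 receptor genes of IL-2, GM-CSF and IL-3, 3 rose, 2 fell and 2 were not called. Il2ra, the chain that gives the IL-2 receptor its high affinity, had 1015 ± 16 CPM in KO and 233 ± 4.2 in WT (n = 4 each), a log2 fold change of 2.12 (SE 0.045, edgeR adjusted p = 1.1e-20), although Il2 itself was near the floor. Il2rb, its signalling partner, was at 189 ± 4.4 CPM in KO and 185 ± 8.4 in WT (edgeR adjusted p = 0.61), and the shared chain Il2rg fell by 0.75. Csf2rb, the beta chain shared by the receptors of GM-CSF, IL-3 and IL-5, had 10.7 ± 1.0 CPM in KO and 2.19 ± 0.39 in WT, a change of 2.29. Csf2rb2, the beta chain that serves only IL-3 in the mouse, rose by 2.12; the beta chain genes are close copies that may share reads. The alpha chain gene Csf2ra had 6.12 ± 0.45 CPM in KO and 6.17 ± 0.40 in WT, and Il3ra fell by 0.58. For IL-23, Il12rb1 rose by 0.71 and Il23r, low at 0.185 ± 0.15 CPM in KO and 0.506 ± 0.19 in WT, fell by 1.39. For the TNF family, Tnfrsf1a fell by 0.29, Tnfrsf14 by 0.95, and Tnfrsf1b and Ltbr rose by 0.11 and 0.86.

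**Figure D5:**
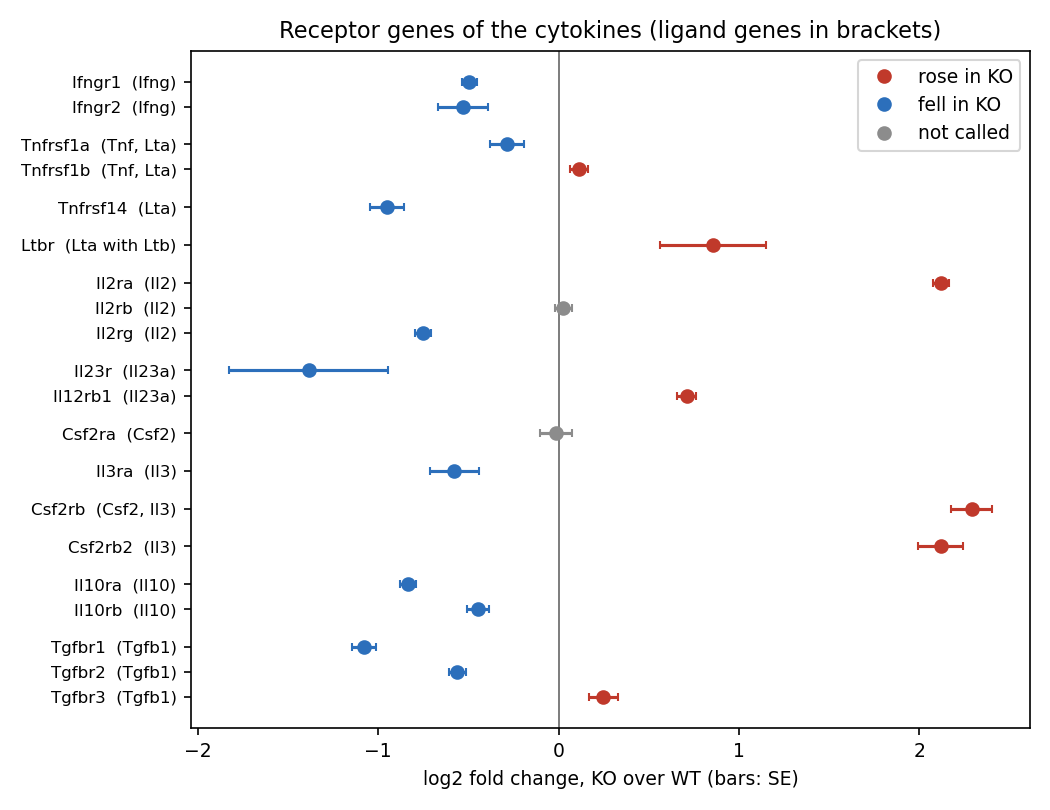
Log2 fold change, KO over WT, of the 20 receptor genes, with the ligand genes in brackets; bars are SEs and colours give the call of edgeR's test. Il2ra, Csf2rb and Csf2rb2 lie above 2, and both receptor genes of Ifng and of Il10 lie below 0.

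Of genes whose products process or release these cytokines, 9 of 10 tested rose and 1 fell (13 listed, median log2 fold change 1.1). For this list and the next, the shares of all tested genes were 32.8% rising and 31.6% falling. Furin, a protease that cuts the TGF-beta precursor, had 65.3 ± 2.6 CPM in KO and 26.1 ± 0.66 in WT, a change of 1.33. Itgav, a chain of integrins that free TGF-beta from its latent complex, rose by 0.95, and Lrrc32, which encodes GARP and tethers latent TGF-beta to the cell surface, by 1.48. The integrin beta chain genes on the list stayed below the floor. Itgb6 had 0.011 CPM in KO and 0 in WT, and Itgb8 0.021 in KO and 0.0081 in WT. Rhbdf2, needed to bring the TNF-shedding protease ADAM17 to the surface, rose by 1.25. Genes that set the decay of cytokine transcripts were split, 3 rising and 7 falling of 15 (median -0.05). The 3 listed genes of the tristetraprolin family, whose products bind AU-rich elements such as those shown for Tnf and Csf2, all fell. Zfp36 had 3.39 ± 0.33 CPM in KO and 6.02 ± 0.66 in WT (log2 fold change -0.82). Zfp36l1 had 16.3 ± 1.5 in KO and 31.7 ± 1.5 in WT (-0.96). Zfp36l2 had 43.3 ± 1.1 in KO and 58.3 ± 2.1 in WT (-0.43). Elavl1, whose product HuR stabilises such transcripts, rose by 0.47, and Zc3h12a and Cnot7 of the same list by 0.41 and 0.21.

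Of 35 tested genes of transcription factors that act on cytokine genes, 20 rose and 9 fell, with a median log2 fold change of 0.24. The shares of all tested genes were 32.8% and 31.6%, and against a fold of 1.5 the list counts were 10 and 3. Bhlhe40, needed for GM-CSF production by T cells, had 158 ± 3.1 CPM in KO and 55.3 ± 1.5 in WT (log2 fold change 1.52). Irf4, induced by the T cell receptor, rose by 1.47. The NF-kappaB genes Nfkb2 and Nfkb1 rose by 1.12 and 0.93. Among the genes that fell, Egr3 fell by 1.11, Ikzf3 by 1.10, Gata3 by 0.77 and Ikzf1 by 0.73. The NFAT genes were split, with Nfatc1 and Nfatc3 falling by 0.24 and 0.27 and Nfatc2 rising by 0.13.

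Known target genes of the cytokines gave no single direction (log2 fold changes in brackets). Their counts stand beside 32.8% of all tested genes rising and 31.6% falling. Of 18 tested targets of interferon gamma, 3 rose and 13 fell (median -0.61), while Ifng itself rose. The transcription factor gene Irf1 had 93.0 ± 4.0 CPM in KO and 200 ± 2.5 in WT (-1.11). The guanylate-binding protein genes Gbp2 and Gbp4, part of a family of close copies that may share reads, fell by 1.92 and 1.2. Of 17 tested targets of TNF and NF-kappaB, 13 rose and 0 fell (median 0.38), with Nfkb2 at 1.12, Icam1, an adhesion molecule, at 0.84, Birc3, an inhibitor of cell death, at 0.63 and Cd83, an activation marker, at 1.63.

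Of 12 tested targets of IL-2 and STAT5, 10 rose and 1 fell (median 0.74), where 32.8% of all tested genes rose and 31.6% fell. Besides Il2ra, these included Bcl2l1, a survival gene, with 102 ± 3.0 CPM in KO and 26.7 ± 1.6 in WT (log2 fold change 1.93), Cish, a feedback inhibitor, which rose by 1.71, and Tnfrsf18, the gene of GITR, by 1.05. Several of these genes also answer to other signals, and some stand in more than 1 list, so the lists are not separate evidence. Of 8 tested targets of TGF-beta, 5 rose and 3 fell (median 0.21). Itgae, the CD103 gene of resident T cells, had 4.74 ± 0.50 CPM in KO and 36.5 ± 1.8 in WT (log2 fold change -2.94), Ldlrad4 and Smad7, inhibitors of TGF-beta signalling, fell by 1.51 and 0.76, and Tgif1, a repressor of it, rose by 0.65.

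Chromosomal neighbours within 100 kb were examined for all 10 genes. Of 84 neighbours, members left out, 59 were tested, of which 10 rose, 24 fell and 25 were not called, where 32.8% of all tested genes rose and 31.6% fell. Around Tnf, Lta and Ltb, Atp6v1g2 fell by 1.28, Lst1 fell by 1.16, H2-D1 by 0.31, D17H6S53E and Nfkbil1 by 0.30, Abhd16a by 0.27 and Bag6 by 0.13, and Csnk2b rose by 0.42. Beside Il23a, Stat2, whose span ends 3291 bases away, fell by 1.04, Pan2 by 0.78, Timeless by 0.45 and the predicted gene Gm26847 by 0.37. Gls2, Spryd4 and Cs rose by 1.55, 0.88 and 0.25. Around Csf2, Acsl6 rose by 2.28 from a low level (1.98 CPM in KO, 0.402 in WT). Around Il10, Mapkapk2, a kinase of the pathway that stabilises cytokine transcripts, rose by 0.40. Around Tgfb1, Atp5sl, B3gnt8, Bckdha, Ccdc97 and Hnrnpul1 fell by 0.25 to 0.56, and 7 of 10 tested neighbours fell while 0 rose. Around Il2, 4932438A13Rik fell by 0.65 and Gm12531 by 0.36, and Gm12583 rose by 0.15. None of the 3 predicted genes near Ifng was called.

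The genes whose levels over the 8 libraries were most like that of Ifng were sought among 11151 genes with a mean of at least 1 CPM. The measure was the root mean square difference of log2 CPM, each taken relative to the WT mean. The closest were Cd36, a fatty acid transporter (0.19), Ankrd33b (0.26), Gzmf, a granzyme (0.40), Atf3 (0.45) and Sema6d, a semaphorin (0.58). Cd36 had 7.66 ± 0.77 CPM in KO and 0.465 ± 0.049 in WT, and Gzmf 14.9 ± 2.0 CPM in KO and 0.648 ± 0.10 in WT (n = 4 each). The likeness rests mainly on the difference between the genotypes.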

How the data were processed

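RNA was measured in 8 libraries of bead-isolated CD8+ T cells, with TRIzol extraction and a stranded polyA kit, per the labels' protocols. Trimmomatic 0.36, featureCounts of Subread 1.5.1 and GRCm38 are named in the submitters' processing notes. Aligner, annotation release and strand setting: not given in the sources used here. As the authors' values, the deposited table has raw read counts per gene, with exon coordinates and lengths; every row names a gene. In rows holding 1 to 10 counts, 86.95% to 88.73% of a library's counts stood in even values, as when each mate of a pair is counted, so counts overstate the number of molecules; this was tried as an alternative by halving the counts.

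Counts were filtered with filterByExpr (17940 of 49492 genes kept), scaled by TMM and fitted in edgeR 4.0.16 (R 4.3.3, limma 3.58.1) with a robust quasi-likelihood F test of KO against WT, two-sided. P-values were adjusted by Benjamini-Hochberg over the 17940 genes and called at 0.05. SEs are the absolute log2 fold change over the square root of F. CPM uses TMM-scaled totals; log2 CPM uses a prior count of 2. The floor is 3 counts a library (0.0487 to 0.0691 CPM), or 6 with each mate counted (0.0974 to 0.138 CPM), for counting error only. Il2 and Il3 were compared by exact permutation tests. The fit was tested on simulated data. DESeq2 1.42.0, other scalings and filters, a replicate block and the omission of each library were alternatives.

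In a chi-square comparison, the 12 library pairs of like genotype lay at 1.61 to 3.89 times sampling noise. The 16 pairs across genotypes lay at 22.6 to 30.9 times, so no pair differed by sampling noise alone. The comparison cannot tell whether libraries share an animal or pool, because separate preparations from the same source can also exceed sampling noise. Deviations of same-numbered KO and WT libraries correlated at 0.0038 to 0.057. The numbers thus gave no sign of pairing, though a weak shared effect could go unseen.

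The 10 genes, the 24 other lists (268 of 268 symbols matched) and the tests were chosen with earlier results of these data known. Named genes are the 10, the called genes of lowest adjusted p, at most 4, of each pathway, target or quality list, the 2 most abundant of each cell type list, called neighbours within 100 kb with a mean of at least 1 CPM, and the 5 genes of at least 1 CPM most like Ifng; genes named beyond this rule were chosen after their values were seen, and 1 gene that it takes is not reported here. Promoters and hairpins came from RefSeq and 3′ untranslated regions from GENCODE M21, both on the build of the table; 8 of the 10 genes had a promoter entry. No set test was run.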

Additional observations from a re-analysis of the deposited data

Results flagged for a closer look

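Each gene's 4 libraries of a genotype were searched for a library far from the others, which gave 20 groups, and chance alone marks about 1 in 20. Tnf in WT library 3 stood at 16.17 CPM, below the nearest library at 19.64 CPM. Il2 in WT library 3 stood at 0.1161 CPM, above the nearest at 0.0348 CPM, a difference of 6 counts against 2. Tgfb1 in KO library 4 stood at 70.87 CPM, above the nearest at 64.93 CPM. Without WT replicate 3 or KO replicate 4, Tnf and Tgfb1 kept their calls.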

How the results depend on the processing

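The 8 tested cytokine genes kept direction and call under each of 16 alternatives, with log2 fold changes of 3.88 to 4.07 for Ifng, 4.67 to 5.11 for Il23a, 3.97 to 4.12 for Lta, -1.19 to -1.12 for Ltb, 2.54 to 2.83 for Csf2 and 0.99 to 1.25 for Il10 (adjusted p up to 0.033), except that against a fold of 1.5 Tnf (0.62, adjusted p = 0.47) and Tgfb1 (0.53, adjusted p = 1) lost the call. Against that fold 1516 genes rose and 1629 fell, and of the list genes 39 rose and 25 fell, with 8 falls and 0 rises among the interferon gamma targets, 4 and 4 among the receptors, and 4 rises among the TNF and NF-kappaB targets. With the replicate block, 7 cytokine genes rose and 1 fell, all genes gave 5857 rises and 5659 falls, the lists 80 and 55, and no cytokine gene's call changed (Il10 1.18, adjusted p = 0.0012).

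Without WT replicate 3 the Il2 difference, KO minus WT, turned to 0.0071 CPM (exact permutation p = 0.63; range over the libraries left out -0.029 to 0.0071). For Il3 the exact permutation p was 0.0571 without any 1 WT replicate, and 0.0286 without any 1 KO replicate (differences 0.0587 to 0.0869 CPM over both). Blk without KO replicate 1 (-0.41, adjusted p = 0.32; range -0.41 to 0.29) and Xcr1 without WT replicate 2 (-0.0092, adjusted p = 0.98; range -0.0092 to 0.27) turned downward. The causes were not tested. Among 93 other named genes, 1440 of the alternative values kept direction and side of the threshold and 39 lost the call; of the list counts, 330 kept within 1.5 times and 22 did not. The other interleukin and cytokine genes that rose numbered 12 with no filter and 11 in DESeq2, and 1 TNF and NF-kappaB target fell with total-count scaling, with halved counts or without KO replicate 1. Depth limits Il2, Il3, Il10 and the WT level of Il23a.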

Other observations

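Of the 30 other interleukin and cytokine genes, 14 did not pass the filter on low counts, among them genes of inflammation and repair. With no filter, edgeR called 5 of the 14 upward and 0 downward, and Il9, without a count, could not be tested. In that fit 37.8% of 31283 genes were called, and 49.5% of the calls were rises. Il24, a cytokine of the IL-10 family, held 46 counts over the KO libraries and 3 over the WT libraries. Tgfb2, a relative of Tgfb1, held 42 counts in KO and 12 in WT, and Areg, the growth factor amphiregulin, 28 in KO and 4 in WT. Il6 held 24 counts in KO and 4 in WT, and Il1b 24 in KO and 0 in WT. DESeq2 also called these 5 (adjusted p of 0.00017 for Il24 and 0.023 for Il6 and Tgfb2). Il21, which lies near Il2, held 16 counts in KO and 4 in WT (edgeR adjusted p = 0.18), and Il9 was at 0 in all libraries. At these depths a few read pairs decide each value.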
